A study of Mus musculus with 12 samples.

Results

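The 7 genes of quiescent tissue macrophages *Cx3cr1*, *Olfml3*, *Slco2b1*, *P2ry12*, *Gpr34*, *Trem2* and *Tgfbr1* were followed in bone marrow-derived macrophages (BMDMs) with and without activation of AMP-activated protein kinase (AMPK). They were taken by symbol from the 12960 genes of the deposited counts. The set was selected on measured values: *Cx3cr1*, *Olfml3* and *Slco2b1* fell with the AMPK activator in wildtype (WT) cells and not in cells lacking the AMPKβ1 subunit. The response of the 7 genes to the activator is therefore given as values, and no test of it is used as support. All 7 genes were in the counts, and 6 of 7 passed the low-count filter that left 10822 genes for testing. *P2ry12* did not pass it.

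BMDMs of WT and AMPKβ1-/- mice were grown from marrow for 7 days in medium conditioned by L929 cells, a source of M-CSF. They were then kept for 6 h with 0.1% DMSO as vehicle or with PF-06409577 (PF, 10 μM), a small-molecule AMPK activator, and RNA sequencing gave 3 libraries in each of the 4 groups. The knockout mice lack AMPKβ1 in every tissue, so the cells lacked it during differentiation too. The labels do not say whether the 3 libraries of a group came from separate mice or cultures, so the spread between them may be technical. Libraries held 8935609 to 14358180 counts. A total of 3 counts, the limit that a gene listed at 0 still allows, corresponded to 0.196 to 0.321 CPM (counts scaled to a common library total with TMM factors) and covers counting error only. *Prkab1*, the gene of AMPKβ1, had 37.3 to 45.3 CPM in WT libraries and 6.05 to 9.42 CPM in AMPKβ1-/- libraries.

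Resident macrophages such as microglia keep a quiescent state in part through signals from neighbouring cells. CX3CR1 receives fractalkine (CX3CL1), P2RY12 senses extracellular ADP, GPR34 responds to lysophosphatidylserine, TREM2 binds lipids and signals through the adaptor TYROBP, and TGFBR1 is the type I receptor for TGF-β, which maintains microglial identity. *Olfml3* encodes a secreted olfactomedin-domain glycoprotein and *Slco2b1* an organic anion transporter, and both are among the transcripts that mark microglia. CX3CR1 is also high on nonclassical, patrolling monocytes.

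The cells carried the transcripts of macrophages and few of those particular to microglia. All 10 macrophage markers on the list used here were tested, among them *Adgre1*, *Cd68* and *Csf1r*, and together they held 25993 to 30795 CPM. Of 4 microglia-defining markers, *Tmem119* had at most 4 counts and *Siglech* at most 6 counts in any library, *Sall1* was not among the genes of the counts, and *Fcrls* had group means of 158 to 307 CPM. The granulocyte markers summed to at most 1.57 CPM and the lymphoid markers to at most 2.35 CPM. Classical monocyte markers summed to 1.80 to 4.68 CPM in WT and 7.29 to 10.8 CPM in AMPKβ1-/- libraries. Of these, *Ccr2* had means of 2.61 and 1.93 CPM in WT and 8.96 and 9.36 CPM in AMPKβ1-/- BMDMs, and *Ly6c2* had at most 3 counts.

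The promoters of the 3 genes that fell together are shown here as the stretch before the RefSeq start site (GRCm38.p6), 5′ to 3′ on the strand of the gene. RefSeq windows were matched for 6 of 7 genes, 9 windows in all, with 3 for *Slco2b1*, of which the one at the outermost start is shown. A set of 5 motifs was searched on both strands of each window from 250 bases before to 50 bases after the start: GAGGAAGT, a site of PU.1, which contains the ETS core GGAAGT, the E-box CACGTG, the AP-1 site TGANTCA, and CAGAC, a short element bound by SMAD proteins. Capitals mark the matches in the stretch shown, all of them to CAGAC or its reverse complement. The *Cx3cr1* stretch lies at chr9:120068297-120068546 on the minus strand, before the RefSeq start but within the span GENCODE gives the gene, the *Olfml3* stretch at chr3:103738002-103738251 and the *Slco2b1* stretch at chr7:99711341-99711590, both on the minus strand and just before the annotated gene.
Cx3cr1: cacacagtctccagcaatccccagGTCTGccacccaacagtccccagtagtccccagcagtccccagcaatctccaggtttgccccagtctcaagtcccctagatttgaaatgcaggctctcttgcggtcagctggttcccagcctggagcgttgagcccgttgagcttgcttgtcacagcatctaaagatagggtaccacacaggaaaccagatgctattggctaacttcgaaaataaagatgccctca
Olfml3: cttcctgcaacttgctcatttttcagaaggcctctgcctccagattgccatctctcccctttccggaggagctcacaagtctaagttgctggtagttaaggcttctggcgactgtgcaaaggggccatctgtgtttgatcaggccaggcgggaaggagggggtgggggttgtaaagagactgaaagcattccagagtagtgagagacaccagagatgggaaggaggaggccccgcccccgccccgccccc
Slco2b1: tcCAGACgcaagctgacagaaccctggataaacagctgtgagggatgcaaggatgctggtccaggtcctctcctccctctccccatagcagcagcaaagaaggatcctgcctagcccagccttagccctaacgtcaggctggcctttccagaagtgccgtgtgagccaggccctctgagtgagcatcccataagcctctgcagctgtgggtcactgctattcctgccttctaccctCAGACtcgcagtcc
The CAGAC matches begin at position -226 in *Cx3cr1* and at positions -248 and -14 in *Slco2b1*, counted from the start site. *Olfml3* held none of the 5 motifs in its whole window. After the start, in bases not shown, *Slco2b1* held GAGGAAGT from position 7 and TGANTCA from position 14, and *Cx3cr1* held a second CAGAC from position 30. The other *Slco2b1* windows also held CAGAC, from positions 32 and -179 of their own starts. Of 32851 promoter windows of the same length, 49.6% held CAGAC, 23.8% GGAAGT, 3.2% GAGGAAGT, 7.81% TGANTCA and 7.15% CACGTG. None of the 5 motifs was present in all 3 of the windows shown.

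*Cx3cr1*, *Olfml3* and *Slco2b1* were the genes whose fall defined the set, and in WT BMDMs the fitted changes with PF were -51.8%, -48.9% and -47.9%. *Cx3cr1*, the fractalkine receptor, lies on chromosome 9 from 119901616 to 120069879 (GRCm38, GENCODE M21, minus strand) and shares exonic sequence with *Gm33858* on the other strand. It had 185, 179.6 and 184 CPM in the WT vehicle libraries and 88.0, 91.4 and 85.2 CPM in the WT PF libraries. In AMPKβ1-/- BMDMs it had 165, 176 and 170.2 CPM with vehicle and 168, 159 and 165 CPM with PF. The 3 WT PF libraries lay below all 9 others, and the AMPKβ1-/- libraries overlapped between treatments. The log2 fold change with PF was -1.05 (SE 0.067) in WT and -0.057 (SE 0.066) in AMPKβ1-/- BMDMs, a difference between the responses of -0.995 (SE 0.094). These values chose the gene and are a description.

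**Figure D1:**
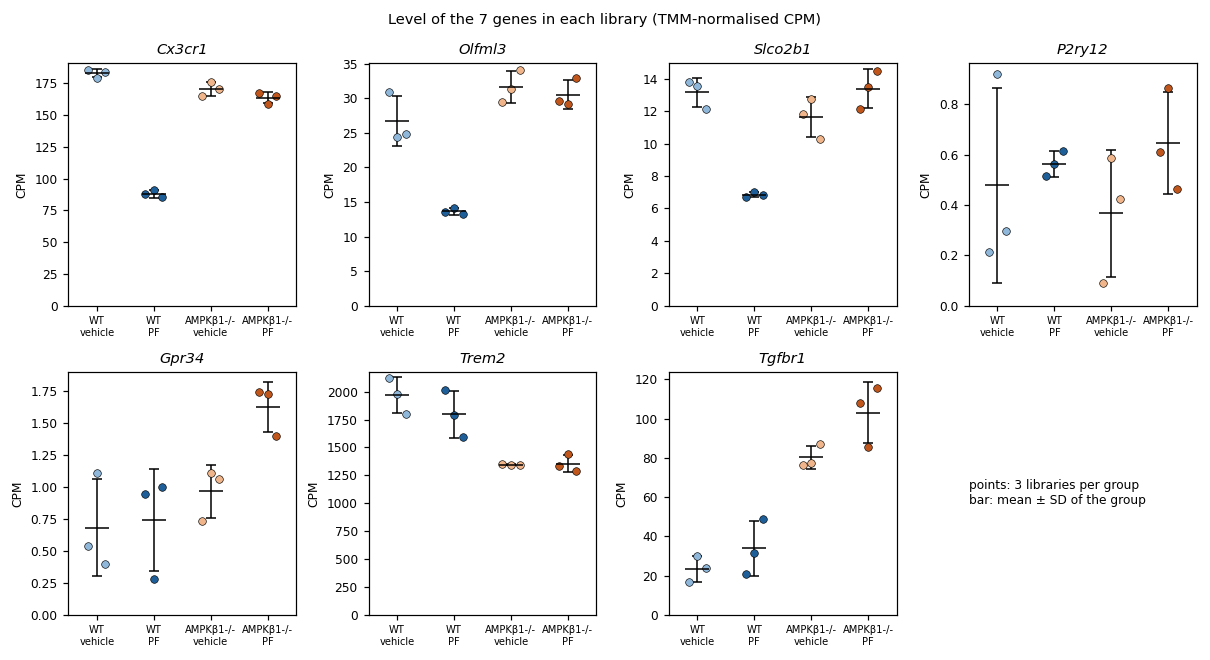
Level of each of the 7 genes, in TMM-normalised CPM on a linear axis from 0, in the 12 libraries. Points are libraries and bars are the mean ± SD of the 3 libraries of a group. WT PF libraries sit apart from the other 9 for *Cx3cr1* (85.2 to 91.4 CPM), *Olfml3* and *Slco2b1*, while *Trem2* and *Tgfbr1* separate by genotype.

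*Olfml3*, which encodes the secreted olfactomedin-domain protein, lies on chromosome 3 from 103722222 to 103738001 (minus strand). It had 30.9, 24.4 and 24.9 CPM in WT vehicle libraries and 13.5, 14.1 and 13.2 CPM in WT PF libraries, and these ranges were far apart. AMPKβ1-/- libraries had 29.4, 31.4 and 34.0 CPM with vehicle and 29.5, 29.1 and 32.9 CPM with PF, with overlap between treatments. The log2 fold change with PF was -0.97 (SE 0.12) in WT and -0.050 (SE 0.11) in AMPKβ1-/- BMDMs. WT vehicle library 1 was the highest of its group. Without it and WT PF library 3 together, the change in WT was -0.80, the smallest fall over 23 alternative settings.

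*Slco2b1*, the transporter gene, lies on chromosome 7 from 99657804 to 99711340 (minus strand) and shares exonic sequence with *Gm15635* and *Gm34280* on the other strand. The libraries were made with a directional kit, but the strand setting of the quantification was not given in the sources used here. *Slco2b1* had 13.8, 13.6 and 12.1 CPM in WT vehicle libraries and 6.69, 7.02 and 6.85 CPM in WT PF libraries. AMPKβ1-/- libraries had 11.9, 12.8 and 10.3 CPM with vehicle and 12.1, 13.5 and 14.5 CPM with PF. The WT PF libraries were again the lowest 3 of 12, and the AMPKβ1-/- groups overlapped. The log2 fold change with PF was -0.94 (SE 0.14) in WT and 0.19 (SE 0.13) in AMPKβ1-/- BMDMs, with a difference between the responses of -1.13 (SE 0.19).

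The size of the fall put the 3 genes among the larger decreases of WT BMDMs. Among all tested genes, 40 had a lower log2 fold change than *Cx3cr1*, 54 a lower one than *Olfml3* and 58 a lower one than *Slco2b1*. The choice of the members fixed how many of them lie past a threshold for PF, in WT and in AMPKβ1-/- BMDMs, and nothing is read from these counts, which are set beside all tested genes only for scale. In WT, 3 of 6 members lay below an adjusted p of 0.05 in the fit over all genes, where 15.9% of all tested genes did, and 3 of 6 were lower DEGs (log2 fold change below -0.8 as well), where 0.37% were. All libraries with PF lay below all libraries with vehicle in WT for 3 of 6 members, against 18.1% of tested genes. For the difference between the responses the count was 3 of 6, against 0.416%. In AMPKβ1-/- BMDMs it was 0 of 6, against 0.0554%, which is 6 genes by edgeR, with 464 higher and 75 lower at an unadjusted p below 0.05.

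**Figure D2:**
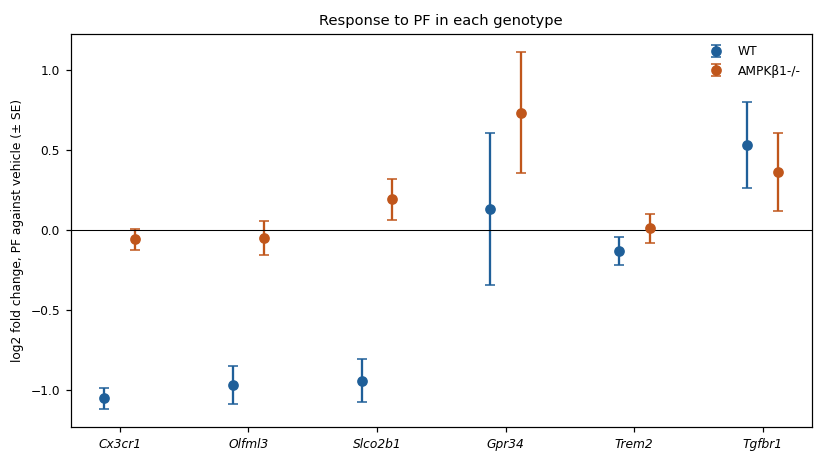
Log2 fold change of PF against vehicle with its SE for the 6 tested genes, in WT (blue) and AMPKβ1-/- BMDMs (orange), 3 libraries per group. In WT, *Cx3cr1*, *Olfml3* and *Slco2b1* lie between -1.05 and -0.94. In AMPKβ1-/- BMDMs the same 3 genes lie between -0.057 and 0.19.

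The fall of these 3 genes kept its sign over the processing, while its size moved in some settings. In all 135 values from alternative settings, the 3 genes kept a negative sign in WT and in the difference between the responses, from -1.21 to -0.75. The genes were chosen for this fall in the same libraries, so the kept sign is a description and is not used as support. The content of guanine and cytosine (GC) of a transcript followed the groups in these libraries: from low to high GC, relative levels rose in WT vehicle libraries, by 0.36 to 0.72 log2 units per 10 percentage points, and fell in AMPKβ1-/- libraries, with slopes of -0.10 to -0.51. WT PF libraries had slopes of -0.053 to 0.37, the highest of them just above the lowest WT vehicle library. *Cx3cr1* (50.3% GC), *Slco2b1* (51.5%) and *Olfml3* (52.4%) were near the median over tested genes, 50.3%. After the dependence on GC content and transcript length was taken out of each library, their log2 fold changes with PF in WT were -1.03, -0.87 and -0.84. In bulk RNA, fewer cells of a type and less RNA per cell cannot be told apart.

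In vehicle the genotypes overlapped for *Olfml3* and *Slco2b1*, while the 3 AMPKβ1-/- libraries lay just below the 3 WT libraries for *Cx3cr1* (165 to 176 against 179.6 to 185 CPM). AMPKβ1-/- minus WT gave a log2 value of -0.10 (SE 0.066) for *Cx3cr1*, 0.24 (SE 0.11) for *Olfml3* and -0.17 (SE 0.13) for *Slco2b1*. The signs of *Cx3cr1* and *Slco2b1* turned, to 0.11 and 0.040, when libraries were scaled by their size alone. That scaling moved the median of all tested genes by 0.21 in this contrast. With PF, the genotypes stood apart, by 0.89 (SE 0.067), 1.16 (SE 0.12) and 0.96 (SE 0.13), with no overlap between libraries. The share of all tested genes without overlap between genotypes was not counted within vehicle or within PF, so nothing is read from these separations. Averaged over treatments the values were 0.40 (SE 0.047), 0.70 (SE 0.080) and 0.40 (SE 0.093). The fall in WT that chose the genes enters these averages, so nothing is read from them.

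The genes whose pattern over the 12 libraries was most like that of *Cx3cr1* were found by the root mean square difference of log2 CPM after centring each gene. *Slco2b1* was the nearest of all tested genes, at 0.141 log2 units, and *Olfml3* had 6 genes nearer, at 0.179. Outside the set the nearest were *Siglece* (0.157), an inhibitory receptor for sialic acids, *Fgd2* (0.166), an exchange factor for CDC42, *Gprc5c* (0.170), an orphan receptor, *Btbd11* (0.171), and *Cebpd* (0.171), a transcription factor of the C/EBP family. Over all tested genes the median distance was 0.513. *Siglece* had a mean of 12.5 CPM in WT vehicle and 5.34 CPM in WT PF libraries, against 12.1 and 12.3 CPM in AMPKβ1-/- BMDMs. *Cebpd* had 52.9 and 31.4 CPM in WT and 49.3 and 46.1 CPM in AMPKβ1-/- BMDMs. *Cx3cr1*, *Olfml3* and *Slco2b1* were chosen for the same fall in WT, so their closeness follows from that choice. The distances also share the 12 libraries and their scaling. They are a description, and nothing is read from them about the members. The other members were far from this pattern, *Trem2* at 0.551, *Gpr34* at 0.670 and *Tgfbr1* at 0.938.

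*P2ry12* and *Gpr34*, the receptors for ADP and lysophosphatidylserine, were near the limit of detection. *P2ry12* lies on chromosome 3 from 59216272 to 59262871 (minus strand) and shares exonic sequence with *Med12l* on the other strand. It had 2, 10 and 3 counts in WT vehicle libraries, 6, 6 and 8 in WT PF, 1, 9 and 4 in AMPKβ1-/- vehicle, and 7, 11 and 5 in AMPKβ1-/- PF libraries. The 4 groups overlapped throughout. With no low-count filter the genotype difference averaged over treatments was -0.066 (SE 0.42, adjusted p = 0.91 from edgeR) and PF in WT gave 0.21 (SE 0.60), so a change was not detectable at this depth.

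*Gpr34* lies on chromosome X from 13632089 to 13640858 (plus strand). It had 5, 12 and 4 counts in WT vehicle, 11, 3 and 13 in WT PF, 8, 17 and 10 in AMPKβ1-/- vehicle and 20, 22 and 15 in AMPKβ1-/- PF libraries. As CPM, the AMPKβ1-/- PF libraries (1.39 to 1.74) lay above the other 9 (0.281 to 1.11), and the other groups overlapped. Its log2 fold change with PF was 0.13 (SE 0.47) in WT and 0.73 (SE 0.38) in AMPKβ1-/- BMDMs. *Gpr34* was the 1 of 6 members whose AMPKβ1-/- libraries did not overlap between treatments, against 14.5% of tested genes. With the GC trend removed these became -0.29 and 0.23. Without WT vehicle library 2 the value in WT was 0.70.

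*Trem2*, the lipid receptor, was by far the most abundant of the 7 genes and stood apart between the genotypes. It lies on chromosome 17 from 48346401 to 48354147 (plus strand). WT libraries had 2125, 1983 and 1799 CPM with vehicle and 2015, 1788 and 1591 CPM with PF. AMPKβ1-/- libraries had 1349, 1346 and 1345 CPM with vehicle and 1333, 1441 and 1293 CPM with PF. Every AMPKβ1-/- library lay below every WT library, while the treatments overlapped within each genotype. The log2 fold change with PF was -0.13 (SE 0.089) in WT and 0.0099 (SE 0.090) in AMPKβ1-/- BMDMs.

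*Tgfbr1*, the type I receptor of TGF-β, lies on chromosome 4 from 47353222 to 47414931 (plus strand). WT libraries had 16.5, 30.1 and 23.6 CPM with vehicle and 20.9, 31.7 and 48.7 CPM with PF. AMPKβ1-/- libraries had 76.4, 77.5 and 86.9 CPM with vehicle and 108, 85.7 and 116 CPM with PF. Every AMPKβ1-/- library was above every WT library. The 3 WT PF libraries were spread widely, and the highest of them held more than 2 times the level of the lowest. The log2 fold change with PF was 0.53 (SE 0.27) in WT and 0.36 (SE 0.24) in AMPKβ1-/- BMDMs, and the value in WT was -0.0037 without WT vehicle library 1 and WT PF library 3. With the GC trend removed the values were 0.11 and 0.078.

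The genotype difference averaged over treatments was not used to choose the members and was tested for the 3 other genes. *Trem2* was lower in AMPKβ1-/- BMDMs, at -0.48 on the log2 scale (SE 0.063, edgeR adjusted p = 1.22e-05). *Tgfbr1* was higher, by 1.69 (SE 0.18, adjusted p = 7.96e-06), and *Gpr34* was higher, by 0.79 (SE 0.30, adjusted p = 0.0298). These 3 of 3 calls stand beside 66.9% of all tested genes called in the same contrast. With a log2 fold change beyond 0.8 as well, 1 of the 3 passed, *Tgfbr1*, against 15.6% of all tested genes. The libraries of the genotypes did not overlap for 2 of the 3, *Trem2* and *Tgfbr1*, against 33.1%.

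These 3 genes lay at the ends of the GC range, and their values moved with its trend. *Gpr34* (37.1% GC) and *Tgfbr1* (41.0%) had a lower GC content than nearly all tested genes, and *Trem2* (57.5%) a higher one than most. Without the GC and length trend, the genotype difference was -0.060 for *Trem2* (adjusted p = 0.188), 0.59 for *Tgfbr1* (adjusted p = 0.000164) and -0.57 for *Gpr34* (adjusted p = 0.106). The call for *Trem2* was lost, that for *Tgfbr1* was kept at a smaller size, and the sign of *Gpr34* turned. The call for *Gpr34* was also lost when any 1 of 7 libraries was left out, with adjusted p from 0.0535 to 0.0813, and with DESeq2 (0.0575). The libraries were WT vehicle 1 and 3, WT PF 2, AMPKβ1-/- vehicle 2 and 3 and AMPKβ1-/- PF 1 and 2. The GC trend was positive in every WT vehicle library and negative in every AMPKβ1-/- library, so genotype and this trend cannot be told apart here. For *Cx3cr1*, *Olfml3* and *Slco2b1* the averaged values were 0.36, 0.67 and 0.43 with the trend removed.

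**Figure D3:**
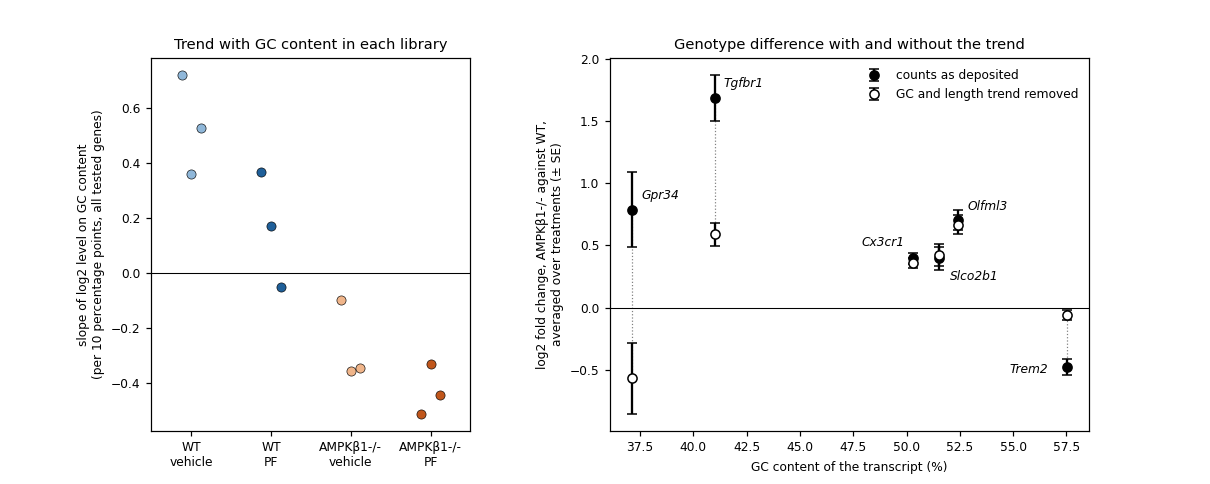
Left, slope of the log2 level of all tested genes on GC content in each library, from 0.72 in WT vehicle library 1 to -0.51 in AMPKβ1-/- PF library 1. Right, log2 fold change of AMPKβ1-/- against WT averaged over treatments (± SE) against the GC content of the transcript, with counts as deposited (filled) and after taking out the dependence on GC content and length (open). *Gpr34*, *Tgfbr1* and *Trem2* move, and the 3 genes near 50% GC stay in place.

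Levels per transcript length give the order of the members. In WT vehicle libraries *Trem2* had 1810 CPM per kb (SD 150.2) and *Cx3cr1* 40.7 (SD 0.66). *Olfml3* (4.89, SD 0.66), *Tgfbr1* (4.06, SD 1.18) and *Slco2b1* (3.01, SD 0.20) followed, and neighbours in this order overlapped. *Gpr34* (0.326) and *P2ry12* (0.204) overlapped as well. In AMPKβ1-/- vehicle libraries *Tgfbr1*, at 13.9 CPM per kb (SD 1.00), stood above *Olfml3* at 5.79 (SD 0.42), with no overlap. With PF in WT, *Cx3cr1* had 19.6 CPM per kb (SD 0.69) and was still second to *Trem2*.

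The genes around the members were described with 9 lists of pathway genes, of which 177 genes other than the members were tested. These lists were written with earlier results of these data known. A count above the share of all tested genes can therefore come from that choice, and nothing is read from it. In WT, 56 of 177 passed with PF by edgeR, 17 higher and 39 lower, where 15.9% of all tested genes passed, 756 higher and 969 lower. With scaling by library size alone the split was 25 higher and 28 lower, and 1045 and 587 over all genes. Between genotypes 125 of 177 passed, 60 higher and 65 lower, where 66.9% of all tested genes did, and the split was 83 higher and 39 lower with library size alone. The count of 56 for PF in WT was 30 without WT vehicle library 1, 33 without WT vehicle library 3, 27 without WT PF library 2, 22 without WT PF library 3, and 15 without WT vehicle library 1 and WT PF library 3. With the GC and length trend removed it was 33, 9 higher and 24 lower. All 17 higher genes had a GC content of 36.4% to 45.9%, and all 39 lower genes one of 48.5% to 61.5%. In AMPKβ1-/- BMDMs 0 of 177 passed, and 2 of 177 passed in the difference between the responses.

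On the fractalkine side of *Cx3cr1*, 5 of 24 tested genes of the axis and of Gi signalling rose with PF in WT and 6 fell, with a median log2 fold change of 0.096, against 0.0048 over all tested genes. With the GC trend removed 1 rose and 2 fell, and the median was -0.072. *Arrb2* and *Arrb1*, the β-arrestins that turn off and internalise chemokine receptors, fell to log2 values of -0.57 (SE 0.090, adjusted p = 0.00182) and -0.48 (SE 0.076, adjusted p = 0.00187). *Arrb2* went from 512 ± 35.9 to 344 ± 24.6 CPM (SD, n = 3). The ligand gene *Cx3cl1* was at 3.93 ± 1.21 and 2.40 ± 0.32 CPM in WT without and with PF, and its change of -0.70 did not pass (adjusted p = 0.0763). *Rgs1*, a regulator of G-protein signalling named after its values were seen, was the 1 gene of this list past the DEG threshold in WT, with 1.33 (SE 0.24, adjusted p = 0.00393). Between genotypes 9 of 24 were higher and 6 lower in AMPKβ1-/- BMDMs, and 4 and 8 were with the trend removed. *Adam10*, a sheddase of fractalkine and of TREM2, was higher by 1.29 (adjusted p = 2.72e-05), and by 0.41 with the GC trend removed. *Rgs18* was higher by 1.62 (adjusted p = 2.65e-05), and its value turned to -0.25 with the trend removed.

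Of 13 tested genes of nonclassical monocytes, the blood cells in which *Cx3cr1* is highest, 5 fell with PF in WT and 0 rose, with a median of -0.18. With the GC trend removed 0 rose and 5 fell as well, but the genes were not all the same. *Adgre4* was called only then, at -0.93 (edgeR adjusted p = 0.00775), against -0.49 (adjusted p = 0.299) before, while *Pou2f2* was no longer called. *Spn*, which encodes the sialoglycoprotein CD43, fell by 0.70 (SE 0.097, adjusted p = 0.000947), from 46.7 ± 3.06 to 28.8 ± 2.56 CPM. *Itgal*, the integrin αL chain, fell by 0.70 (SE 0.10, adjusted p = 0.00112), from 221 ± 27.6 to 136 ± 6.34 CPM. *Nr4a1*, the transcription factor required for these monocytes and named after its values were seen, fell by 1.05 (SE 0.16, adjusted p = 0.00149), from 12.3 to 5.94 CPM, while AMPKβ1-/- BMDMs had 14.41 and 13.1 CPM. Its difference between the responses, -0.92 (SE 0.22), did not pass edgeR's interaction contrast (adjusted p = 0.0734). That difference passed in 1 of 12 fits with a library left out. With the GC trend removed it was -0.72 (adjusted p = 0.0413). *Treml4*, named after its values were seen, also passed the DEG threshold, with -1.16 (SE 0.33, adjusted p = 0.0305), at a level of 1.79 CPM with vehicle. It lost the call without any 1 of 4 libraries. *Pou2f2* fell by 0.42 (adjusted p = 0.0274), a call lost with the GC trend removed (adjusted p = 0.318). Between genotypes 7 of 13 were higher and 3 lower in AMPKβ1-/- BMDMs, among them *Pou2f2* by 0.94 (adjusted p = 3.5e-07) and *Adgre4* by 1.73 (adjusted p = 1.21e-05), the latter 0.56 with the trend removed.

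Few relatives of *Olfml3* and *Slco2b1* could be tested. Of 12 other olfactomedin-domain genes 5 were among the genes of the counts and 3 were tested, and of 10 other SLCO transporters 5 were and 2 were tested. *Olfm1* fell by 0.39 with PF in WT (SE 0.080, adjusted p = 0.00728), from 60.8 ± 3.32 to 46.3 ± 1.81 CPM, and the call was lost with the GC trend removed (adjusted p = 0.105). *Olfml2b* had 1.38 and 1.04 CPM in WT without and with PF (adjusted p = 0.422). *Adgrl2*, a latrophilin, was higher in AMPKβ1-/- BMDMs by 0.57 (SE 0.075, adjusted p = 1.02e-05). Neither *Slco3a1* (-0.28, SE 0.19) nor *Slco4a1* (-0.50, SE 0.41) passed with PF in WT. *Slco3a1* was higher in AMPKβ1-/- BMDMs by 0.32 (adjusted p = 0.0464), a call lost without any 1 of 8 libraries.

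Around *P2ry12* and *Gpr34*, 2 of 22 tested genes of purinergic and lysophospholipid signalling rose with PF in WT and 4 fell, with a median of -0.064, and 1 and 2 did with the GC trend removed. *P2ry6*, the UDP receptor, fell by 0.39 (SE 0.084, adjusted p = 0.00949), from 307 ± 32.6 to 234 ± 16.6 CPM, a call lost without WT PF library 3 (adjusted p = 0.0592), and its value was -0.19 with the trend removed (adjusted p = 0.0483). *Entpd1*, the ectonucleotidase CD39, rose by 0.46 (SE 0.091, adjusted p = 0.00587), from 119 ± 8.24 to 164 ± 7.64 CPM, and lost the call with the GC trend removed (adjusted p = 0.409). *P2ry13*, the other ADP receptor, had 1.56 ± 0.48 and 2.25 ± 0.37 CPM in WT (adjusted p = 0.284). *Adora2a*, an adenosine receptor named after its values were seen, was the 1 lower DEG of the list, with -1.54 (SE 0.44, adjusted p = 0.0312) at 1.08 CPM with vehicle, and lost the call without any 1 of 4 libraries and with the trend removed (adjusted p = 0.0977). Between genotypes 5 of 22 were higher and 9 lower, and 3 and 13 were with the trend removed. *S1pr2*, a sphingosine 1-phosphate receptor, was lower in AMPKβ1-/- BMDMs, at -0.49 (adjusted p = 5.95e-06). *P2ry10b* was higher by 1.81 (adjusted p = 9.8e-06), and its value was 0.17 with the trend removed (adjusted p = 0.414).

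Of 22 tested genes of TREM2 signalling, 3 rose and 5 fell with PF in WT, with a median of -0.11, and 1 and 2 did with the GC trend removed. *Inpp5d*, the phosphatase SHIP1, fell by 0.41 (SE 0.085, adjusted p = 0.00773), with a value of -0.25 with the trend removed. *Ms4a7* rose by 0.56 (SE 0.093, adjusted p = 0.00227), a call lost with the trend removed (adjusted p = 0.421). *Tyrobp*, the adaptor of TREM2, did not pass with PF in WT (0.17, adjusted p = 0.222). It was lower in AMPKβ1-/- BMDMs, at -0.43 (SE 0.069, adjusted p = 6.03e-05), as *Trem2* was, and both calls were lost with the trend removed, *Tyrobp* at 0.0076. *Treml2* was lower in AMPKβ1-/- BMDMs, at -1.47 (SE 0.18, adjusted p = 5.4e-06), and at -1.20 with the trend removed. *Dap*, which is on the list but is not the gene of a TREM2 adaptor, was lower, at -0.39 (adjusted p = 1.17e-05). That call was also lost with the trend removed (adjusted p = 0.437). Between genotypes 6 of 22 were higher and 8 lower, with *Dap* counted among the lower.

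Disease-associated microglia induce a set of genes, lipid and lysosomal genes among them, and only part of this induction depends on TREM2. The list of this set does not separate that part. Of 31 tested genes of that set, 7 were higher and 19 lower in AMPKβ1-/- BMDMs, with a median log2 fold change of -0.38, against -0.020 over all tested genes and a background of 66.9% called. With the GC trend removed 5 were higher and 22 lower, with a median of -0.35. *Gpnmb*, a lysosomal glycoprotein, was lower, at -0.84 (SE 0.058, adjusted p = 4.05e-08), at means of 12255 and 13769 CPM in WT and 7142 and 7362 CPM in AMPKβ1-/- BMDMs. *Fabp5*, a fatty acid-binding protein, was lower, at -1.18 (SE 0.058, adjusted p = 4.47e-09). Its rise with PF in WT enters this average. Within vehicle its means were 319 CPM in WT and 192 CPM in AMPKβ1-/- BMDMs. With PF in WT 4 rose and 2 fell. *Fabp5* rose by 0.87 (SE 0.081, adjusted p = 7.23e-05), from 319 ± 30.5 to 583 ± 23.7 CPM, with 0.49 after removal of the GC trend, and was at 192 ± 13.1 and 188 ± 4.92 CPM in AMPKβ1-/- BMDMs. *Lilrb4a*, an inhibitory receptor, rose by 0.71 (SE 0.15, adjusted p = 0.0116), a call lost without WT PF library 3 (adjusted p = 0.0539) and with the GC trend removed (adjusted p = 0.310).

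In the TGF-β pathway of *Tgfbr1*, 2 of 35 tested genes rose and 9 fell with PF in WT, with a median of -0.16, and 1 and 4 did with the GC trend removed. *Tgfbi*, a matrix protein induced by TGF-β, fell by 0.58 (SE 0.085, adjusted p = 0.00123), from 1156 ± 118 to 771 ± 19.8 CPM. *Ltbp3*, which holds latent TGF-β, fell by 0.61 (SE 0.11, adjusted p = 0.00295), from 66.7 ± 7.09 to 43.6 ± 3.67 CPM, and its value was -0.30 with the trend removed. The ligand gene *Tgfb1* had 814 ± 83.9 and 677 ± 56.3 CPM (adjusted p = 0.0528), and *Tgfbr2*, the type II receptor, 138 ± 12.3 and 137 ± 5.86 CPM (adjusted p = 0.915). Between genotypes 16 of 35 were higher and 5 lower in AMPKβ1-/- BMDMs, and 19 and 7 were with the trend removed, beside a background of 66.9% called. *Skil*, a repressor of SMAD proteins, was higher by 1.95 (SE 0.13, adjusted p = 1.43e-07) and *Bmpr2*, a type II receptor for bone morphogenetic proteins, by 1.55 (SE 0.12, adjusted p = 1.3e-07). Both have a GC content of 41.0%, as *Tgfbr1* has, and their values were 0.79 and 0.21 with the trend removed. *Tgfb1* was lower, at -0.49 (SE 0.063, adjusted p = 9.82e-06), and at -0.19 with the trend removed.

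Of 31 tested other genes of homeostatic microglia and resident macrophages, 2 rose and 9 fell with PF in WT (background 15.9% called), with a median of -0.062. None was a DEG in WT, where the lowest value of the list was -0.58. *Csf1r*, the receptor for M-CSF on which macrophages depend, had that value (SE 0.094, adjusted p = 0.00207), falling from 7372 ± 734 to 4937 ± 300 CPM. *Vsir*, the checkpoint receptor VISTA, fell by 0.44 (SE 0.074, adjusted p = 0.00259), from 629 ± 44.6 to 464 ± 20.2 CPM. *Fcrls* fell by 0.43 (adjusted p = 0.0163), a call lost without WT vehicle library 1 or WT PF library 3. With the GC trend removed 1 rose and 8 fell, and *Csf1r* and *Vsir* were at -0.39 and -0.27. In AMPKβ1-/- BMDMs 0 of 31 passed, with 0 at an unadjusted p below 0.05. In the difference between the responses 0 of 31 passed as well, with 2 higher and 9 lower at an unadjusted p below 0.05, so a response particular to WT was not shown for these genes.

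**Figure D4:**
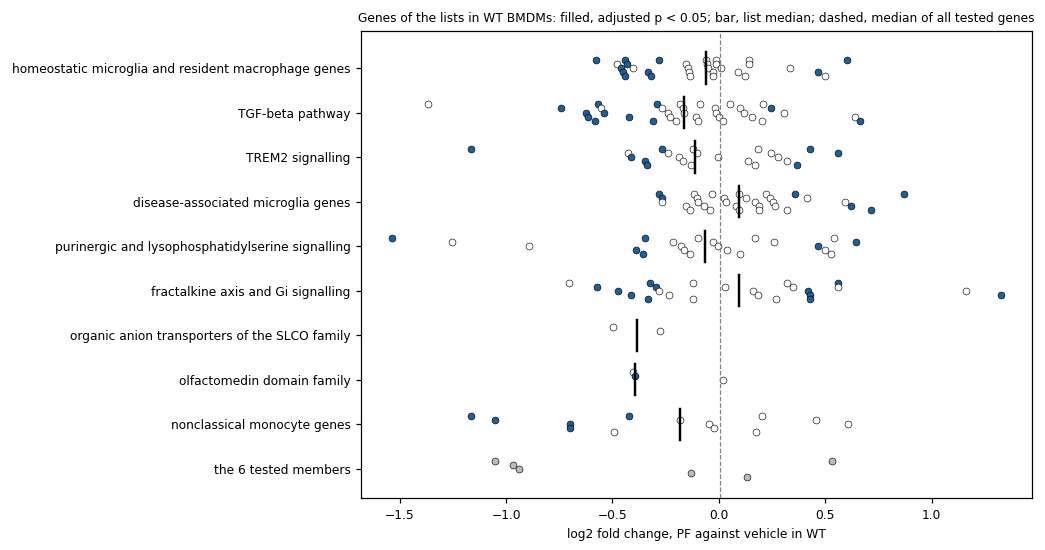
Log2 fold change of PF against vehicle in WT BMDMs for the tested genes of each list and, in grey, for the 6 tested members. Filled points passed an adjusted p of 0.05, open points did not, the bar is the median of a list and the dashed line that of all tested genes (0.0048). Medians of the lists with more than 3 genes lie from -0.18 to 0.096, and *Cx3cr1*, *Olfml3* and *Slco2b1* lie at -0.94 or below.

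Between genotypes 10 of these 31 homeostatic genes were higher and 16 lower in AMPKβ1-/- BMDMs, with a median of -0.16, and 8 and 8 were with the GC trend removed, with a median of -0.00082. *Gas6*, a ligand of the receptor MERTK that binds dying cells, was lower, at -0.80 (SE 0.058, adjusted p = 6.46e-08), at 434 ± 18.2 and 426 ± 50.2 CPM in WT and 248 ± 9.03 and 246 ± 4.39 CPM in AMPKβ1-/- BMDMs. *Fcrls* was lower, at -0.72 (SE 0.074, adjusted p = 1.5e-06). Both kept their calls with the trend removed, at -0.52 and -0.71. Of the macrophage markers, 4 of 10 fell with PF in WT and 0 rose, with a lowest value of -0.58, and between genotypes 3 were higher and 3 lower. Of markers of other cells, the osteoclast genes summed to 40.3 to 44.3 CPM in WT vehicle and 56.1 to 65.1 CPM in WT PF libraries, and to 27.3 to 40.8 CPM in AMPKβ1-/- libraries, with 1 of 5 tested genes higher and 1 lower with PF in WT. The dendritic cell markers summed to 252 to 292 CPM in WT and 157 to 211 CPM in AMPKβ1-/- libraries, the fibroblast markers to 1.31 to 10.8 CPM and the erythroid and megakaryocyte markers to 11.01 to 20.96 CPM, with 0 called for PF in WT. The part of these markers in the fall of *Cx3cr1*, *Olfml3* and *Slco2b1* was not tested.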

How the data were processed

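RNA of 12 BMDM libraries was sequenced with a directional kit, 3 libraries for each of 4 groups taken from the labels. The deposited values are estimated counts per gene, which the authors made with Trim Galore and Salmon. The genome build, the Salmon version and settings and the filter that left 12960 genes are not given in the sources used here. No deposited sample column was left out (0 unused). Columns were matched to groups by name only.

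Genes with low counts were removed with filterByExpr, and 10822 genes were tested with the quasi-likelihood test of edgeR 4.0.16 (limma 3.58.1, R 4.3.3), TMM scaling, robust estimation and 4 group means over 12 libraries. P-values were two-sided and adjusted by Benjamini-Hochberg over all tested genes. DEGs had an adjusted p below 0.05 and an absolute log2 fold change above 0.8. SEs are the log2 fold change divided by the root of the F statistic. CPM are TMM-scaled, and log2 CPM for distances used a prior count of 2. GC content and length of the principal transcripts (GENCODE M21, GRCm38) entered one alternative as an offset, fitted with natural splines of 5 degrees of freedom. Other alternatives were DESeq2 1.42.0, other scalings and filters, voom, a replicate block, the libraries of a contrast alone and leaving out libraries. Leaving out WT vehicle library 1 and WT PF library 3 together was chosen after seeing the data. The fit was also run on simulated data, in which no GC trend was made to follow the groups. Its outcome is not given here, and nothing is read from it about the calls.

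The members and lists were chosen with earlier results of these data known. From each list the text names the 2 tested genes with the smallest p in the averaged genotype contrast and the 2 with the smallest p for PF in WT, plus *Cx3cl1*, *Tyrobp*, *Tgfb1*, *Tgfbr2*, *P2ry13* and *Prkab1* by role and the 5 genes nearest to *Cx3cr1*. Outside this rule, *Rgs1*, *Nr4a1*, *Treml4* and *Adora2a* were named after their values were seen, and *Csf3r* for its opposite directions in the genotypes. Counts are estimates from reads without molecular identifiers, so intervals cover counting error only.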

Additional observations from a re-analysis of the deposited data

Results flagged for a closer look

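In the lists of pathway genes, the response to PF differed between the genotypes for *Fabp5*, by 0.90 on the log2 scale (WT minus AMPKβ1-/-, SE 0.12, adjusted p = 0.00471 from edgeR's interaction contrast). It was 0.56 with the GC and length trend removed (adjusted p = 0.0103) and passed with each of 12 libraries left out. *Spn* differed by -0.69 (SE 0.14, adjusted p = 0.0417), and by -0.59 with the trend removed (adjusted p = 0.0113), but passed in only 2 of 12 fits with a library left out, with adjusted p up to 0.170. *Csf3r*, the receptor for G-CSF, and *Pou2f2*, a transcription factor, are listed by a rule without a test. Their PF libraries all lay below the vehicle libraries in WT and all above them in AMPKβ1-/- BMDMs. Their differences of -0.27 and -0.68 did not pass edgeR's interaction contrast (adjusted p = 0.297 and 0.0801). Of all tested genes, 18.1% were lower without overlap in WT. In AMPKβ1-/- BMDMs 14.5% had no overlap, in either direction. The share that met the rule in both genotypes was not counted, so nothing is read from this listing.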

How the results depend on the processing

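Of *Gpr34*, *Trem2* and *Tgfbr1*, which passed in the genotype contrast, 1 passed with the GC and length trend removed, *Tgfbr1*. *Gpr34* then reversed, to -0.57 averaged over treatments, -0.83 within vehicle and -0.31 within PF. Of the genes of the lists, 125 passed in that contrast, and every alternative stayed within 1.5 times of it in number, though 60 higher and 65 lower became 83 and 39 with library size alone (3555 and 3686 against 4799 and 2050 over all genes). For PF in WT, 56 genes of the lists passed, against 33 with the trend removed, 24 with the libraries of the contrast alone, 15 without WT vehicle library 1 and WT PF library 3 together, and 22 to 71 with 1 library left out. For PF in AMPKβ1-/- BMDMs, 0 passed, and 1 with the libraries of the contrast alone. For the difference of the responses, 2 passed, against 1 with DESeq2 size factors, 16 with DESeq2, 7 with the trend removed, 1 without both libraries and 1 to 15 with 1 library left out. Over all genes, PF in WT gave 1725 calls, 772 with the trend removed, 419 with the libraries of the contrast alone and 346 to 3243 with 1 library left out. PF in AMPKβ1-/- BMDMs gave 6, between 0 and 62 elsewhere, and the difference of the responses 45, with 190 by DESeq2, 170 with the trend removed and 5 to 284 with 1 library left out. Where fewer libraries were fitted the count rests on less data, and such counts moved both up and down. The cause of these moves was not tested. Scaling by library size alone moved the median of all genes by 0.18 in the genotype contrast.

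Whether the replicate numbers pair the samples was not settled, because only same-numbered libraries were compared. Their deviations correlated between -0.18 and 0.32, over 0.1 in 6 of 18 pairs. Over all genes, PF in WT gave 1983 calls with the number as a block, against 1725 without it. With the number as a block, 59 genes of the lists passed for PF in WT, 3 in the difference of the responses and 125 between genotypes, and *Gpr34*, *Trem2* and *Tgfbr1* passed, *Gpr34* with an adjusted p of 0.0455.

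Depth limits *P2ry12* and *Gpr34*, which had at most 22 counts in any library.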
